A study of Mus musculus with 42 samples.

Results

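Cell cycle and mitosis genes were followed by RNA sequencing in mouse pancreatic tumours treated with BXCL701. They are 45 genes chosen by symbol from the 47729 rows of the deposited gene table, from the cyclins that open S phase to the motors that divide the cell. Each of the 45 symbols matched 1 row, and all 45 passed the filter on low values that 16613 genes passed.

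The tumours were subcutaneous Pan02 tumours, which grow from a mouse pancreatic adenocarcinoma line injected into the right flank of C57BL/6 mice. Tumours of mice given BXCL701, an inhibitor of dipeptidyl peptidases, at 20 ug by daily oral gavage were collected on 3 days. The day 1 harvests followed the dose by 1, 8 and 16 h, and days 7 and 14 had a 0 h harvest besides those hours. Tumours of mice given vehicle (PBS) were collected at 0 h on days 1, 7 and 14. Each of the 14 groups held 3 tumours, each labelled as a separate animal. Vehicle tumours were collected only at 0 h, so a comparison over all BXCL701 hours combines treatment with hour of harvest, and the 0 h harvests of days 7 and 14 are the matched ones. No anti-PD1 group is among these 42 libraries. The tumours were whole bulk tissue, grown under the skin and not in the pancreas.

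A dividing cell copies its DNA in S phase and separates the copies in mitosis. Cyclin E and the E2F factors start S phase, the MCM helicase is loaded on replication origins and moves with the fork, and ribonucleotide reductase and thymidylate synthase supply nucleotides. Cyclins A and B with CDK1 then drive entry into mitosis, the spindle checkpoint holds anaphase until every chromosome is attached, and CDC20 activates the ubiquitin ligase that ends mitosis. Transcripts of these genes are high in proliferating tissue and low in resting tissue, and tumour profiling uses them as proliferation markers.

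The promoters of these genes carry known control elements, so 6 are printed, from genes the results below turn on and from an MCM gene and Pcna for contrast. The cell cycle homology region (CHR) and CCAAT box are known from genes that peak in G2 and mitosis, and the E2F site from genes that peak at the start of S phase. The windows are RefSeq sequences on GRCm38.p6, from 250 bases before to 50 bases after the annotated start, printed 5′ to 3′ on the gene's strand. Capitals mark the motif letters searched for on both strands, which were TTTGAA or TTCGAA for the CHR, CCAAT for the CCAAT box, and TTTCCCGC, TTTCGCGC, TTTGCCGC or TTTGGCGC for E2F. ATTGG is the CCAAT box on the other strand. The windows are chr9:70421505-70421804 on the minus strand for Ccnb2, chr7:122159185-122159484 on the plus strand for Plk1, chr4:118437294-118437593 on the minus strand for Cdc20, chr10:69352863-69353162 on the minus strand for Cdk1, chr8:75109259-75109558 on the plus strand for Mcm5 and chr2:132253131-132253430 on the minus strand for Pcna.
Ccnb2: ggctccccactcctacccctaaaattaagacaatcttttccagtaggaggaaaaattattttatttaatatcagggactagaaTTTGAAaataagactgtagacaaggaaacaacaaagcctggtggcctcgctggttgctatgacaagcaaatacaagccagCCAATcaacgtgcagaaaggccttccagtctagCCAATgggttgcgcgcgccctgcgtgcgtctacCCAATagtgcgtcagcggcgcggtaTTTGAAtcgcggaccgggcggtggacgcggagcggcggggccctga
Plk1: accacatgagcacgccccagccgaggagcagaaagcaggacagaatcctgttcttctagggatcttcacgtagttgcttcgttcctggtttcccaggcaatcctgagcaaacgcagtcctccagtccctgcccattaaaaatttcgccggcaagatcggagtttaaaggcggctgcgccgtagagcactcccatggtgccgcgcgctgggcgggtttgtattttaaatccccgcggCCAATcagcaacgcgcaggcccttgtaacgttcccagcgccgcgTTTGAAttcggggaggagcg
Cdc20: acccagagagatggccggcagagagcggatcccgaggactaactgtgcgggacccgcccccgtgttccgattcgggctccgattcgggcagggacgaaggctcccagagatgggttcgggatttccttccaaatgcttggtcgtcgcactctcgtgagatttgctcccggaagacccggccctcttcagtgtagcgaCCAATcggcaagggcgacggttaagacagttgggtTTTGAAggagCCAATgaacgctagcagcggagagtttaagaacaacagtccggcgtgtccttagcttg
Cdk1: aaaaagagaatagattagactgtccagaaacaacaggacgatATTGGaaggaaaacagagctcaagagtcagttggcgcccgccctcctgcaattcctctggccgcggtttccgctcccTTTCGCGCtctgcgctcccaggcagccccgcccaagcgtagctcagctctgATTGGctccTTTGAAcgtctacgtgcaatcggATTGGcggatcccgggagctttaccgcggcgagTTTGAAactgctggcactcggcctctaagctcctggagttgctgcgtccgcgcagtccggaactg
Mcm5: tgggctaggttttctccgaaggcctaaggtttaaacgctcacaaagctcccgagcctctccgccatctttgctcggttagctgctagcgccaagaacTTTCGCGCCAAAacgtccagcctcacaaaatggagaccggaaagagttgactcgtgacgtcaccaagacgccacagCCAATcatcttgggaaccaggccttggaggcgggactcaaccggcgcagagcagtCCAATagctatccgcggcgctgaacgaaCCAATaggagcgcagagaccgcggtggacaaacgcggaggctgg
Pcna: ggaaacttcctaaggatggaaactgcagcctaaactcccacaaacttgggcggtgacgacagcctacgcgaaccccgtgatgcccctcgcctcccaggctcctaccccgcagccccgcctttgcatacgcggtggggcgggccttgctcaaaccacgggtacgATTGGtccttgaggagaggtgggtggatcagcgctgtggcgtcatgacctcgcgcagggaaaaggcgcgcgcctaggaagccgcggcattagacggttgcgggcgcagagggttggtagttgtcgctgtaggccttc

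The Ccnb2 window held 3 CCAAT boxes, at bases -87, -54 and -21 from the start, and 2 CHR matches, the nearer at base 5 and the other farther upstream. In the Plk1 window a CCAAT box lay at -14 and a CHR at 31. Cdc20 had a CHR at -18 between CCAAT boxes at -53 and -8. Cdk1 held all 3 motifs, with CHR matches at -71 and -15 and an E2F match at -131. Mcm5 had 3 CCAAT boxes, no CHR match in the window, and E2F matches on both strands that overlap each other. Pcna had only a CCAAT box, at -87.

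Of the 45 genes, 34 had such a window in the RefSeq table. CHR letters were in 18 of the 34 (52.9%), against 21.7% of the 27025 genes with a window. CCAAT was in 26 of the 34 (76.5%), against 41.1% of all genes, and an E2F match in 6 of the 34 (17.6%), against 2.60%. By role, the CHR was found in 4 of 5 mitotic cyclins and kinases, 4 of 5 checkpoint and anaphase genes, 7 of 10 chromosome and spindle genes and 3 of 8 licensing and fork genes. It was in 0 of 3 genes of S phase entry and 0 of 3 of nucleotide supply. E2F letters were in 5 of the 8 licensing and fork genes. A match describes these letters only, and binding was not measured.

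Per length, Cdk1 had the highest transcript level of the 45, with a median of 140 FPKM over the 42 tumours and a range of 73.9 to 176 FPKM. Pcna, the sliding clamp of the replication fork, followed at 102 FPKM, then Top2a, the topoisomerase that untangles chromosomes, at 81.4 FPKM and Birc5 (survivin), part of the chromosomal passenger complex, at 77.1 FPKM. Lowest were Ccne2 (cyclin E2) at 3.70 FPKM, Ttk, a checkpoint kinase, at 4.43 FPKM, Pif1, a DNA helicase, at 4.48 FPKM and Cdc25c, the phosphatase that activates CDK1, at 5.92 FPKM. Between tumours of 1 group, the 45 genes varied with a median SD of 0.28 on the log2 scale, against 0.39 for all genes tested. The sets were not matched for expression level, and SDs among all genes tested reached 5.39. Ccne2 varied most, with an SD of 0.75, and Gins2, a subunit of the fork helicase, least, with an SD of 0.21. The smallest range over all tumours was that of Mcm2, at 1.96-fold. The exons of 13 of the 45 genes share bases with another gene, for Foxm1, Mcm7 and Top2a on the same strand, and whether the authors counted by strand is not known here.

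**Figure D1:**
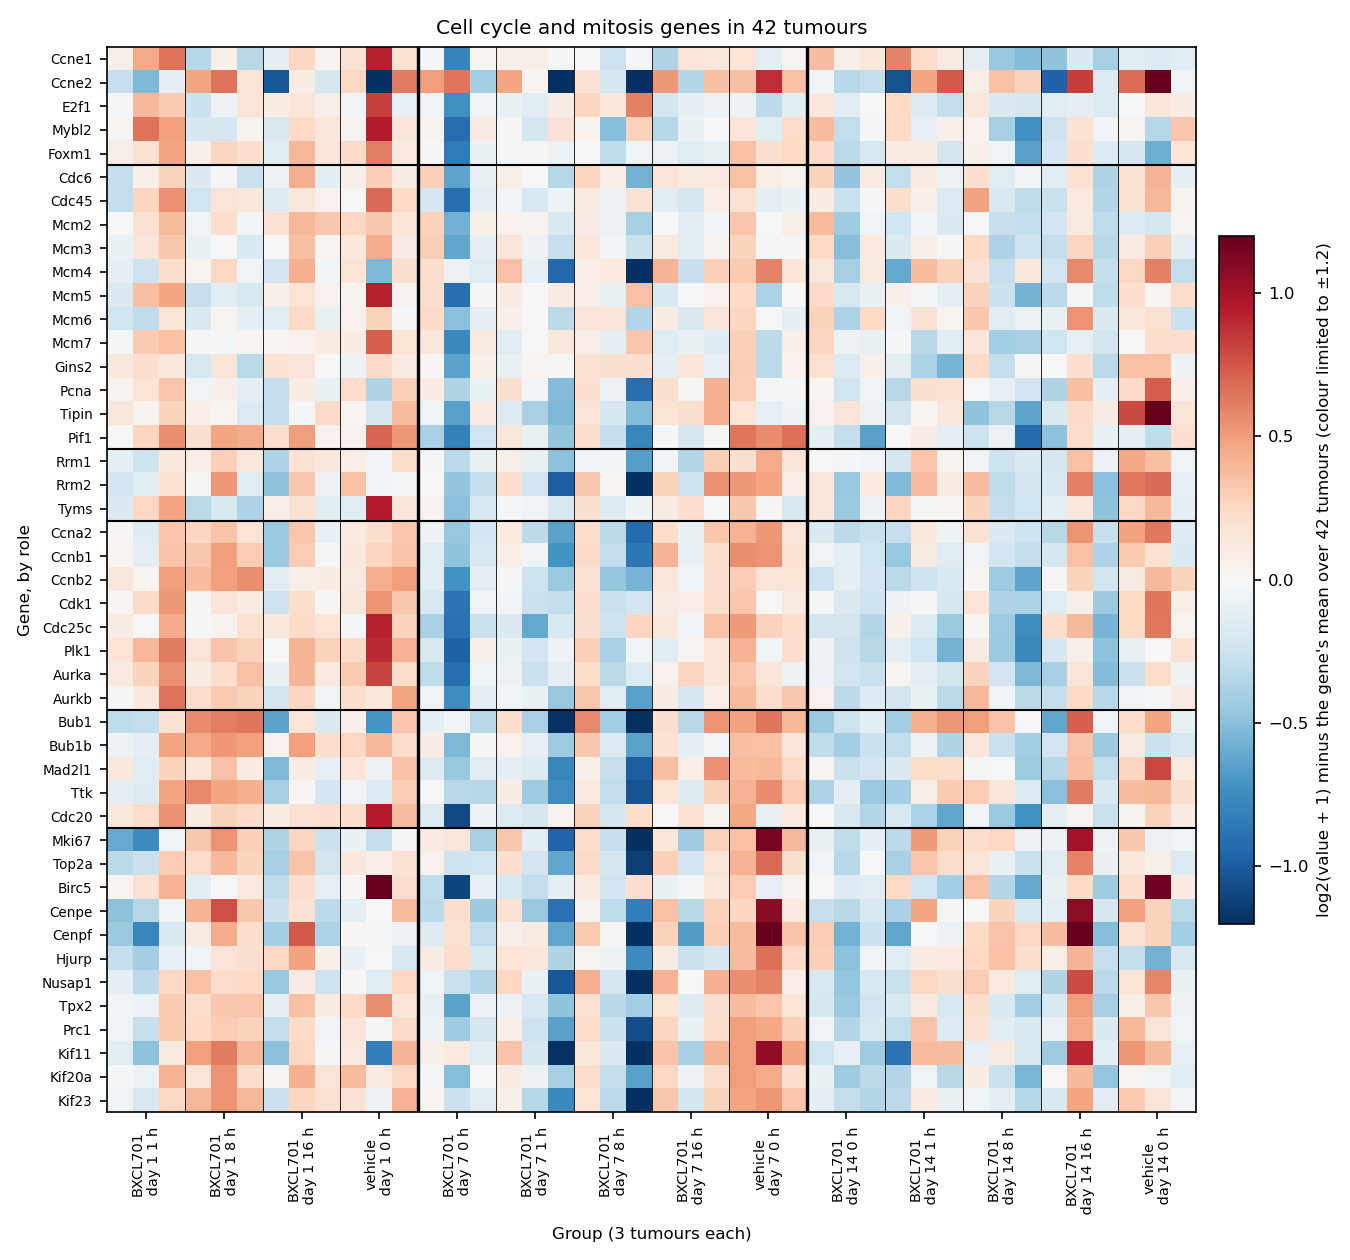
Heat map of the 45 genes (rows, grouped by role) in the 42 tumours (columns, grouped by day, with BXCL701 left of vehicle). Colour gives log2(value + 1) minus the gene's mean over all tumours. Whole columns are pale or dark together: BXCL701 day 7 0 h replicate 2 holds the lowest value of 23 genes, and vehicle day 1 replicate 2 the highest of 16.

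A few tumours were high or low in many of the 45 genes, as the heat map of the genes by tumour shows. BXCL701 day 7 0 h replicate 2 held the lowest value of 23 genes and BXCL701 day 7 8 h replicate 3 that of 20. Vehicle day 1 replicate 2 held the highest value of 16 genes and vehicle day 14 replicate 2 that of 9. Libraries also differed in how their values depended on transcript length. A length index, the slope of a library's log2 deviations on log2 exon length over 11487 genes, was most extreme in BXCL701 day 7 8 h replicate 3 (-0.411), vehicle day 1 replicate 2 (-0.368), vehicle day 7 replicate 2 (0.333) and BXCL701 day 7 0 h replicate 2 (0.326). Library totals were 19.1 to 26.6 × 1e6 scaled reads, lowest in BXCL701 day 7 0 h replicate 2 and highest in BXCL701 day 7 8 h replicate 3. Median-of-ratios size factors of these tumours were 0.931 and 1.10. The authors had already adjusted the scale, and the main fit added no scaling of its own. Of the tumour cell markers, Krt8, Krt18 and Msln were high and Epcam and Muc1 low. Keratinocyte markers ranged widely: 7 of 12 were at 0 in at least 1 library, but Krt5 reached 7480 and Krt14 9393 scaled reads. Their mean log2 value ran from 1.69 in BXCL701 day 14 8 h replicate 3 to 10.15 in vehicle day 14 replicate 3. At 0 h it was also high in vehicle day 7 replicate 3 (9.59) and BXCL701 day 14 replicate 2 (9.34). The part of keratinocytes alone in the differences below was not tested. Mean log2 values of keratinocyte, skeletal muscle and adipocyte markers served together as the neighbouring tissue covariates of an alternative fit, given at the end.

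At 0 h, with days 7 and 14 combined, 44 of the 45 genes were lower in the 6 BXCL701 tumours than in the 6 vehicle tumours, by a median of 0.40 on the log2 scale. Over all genes tested the median difference was -0.02, and 8871 of 16613 genes were below 0. Summed, the 45 genes made up 0.238 to 0.315 (median 0.265) percent of a library's total in BXCL701 tumours and 0.283 to 0.391 (median 0.335) percent in vehicle tumours, so the groups overlapped. In limma 1 gene, Cdc25c, passed a Benjamini-Hochberg adjusted p of 0.05, in a comparison where 0.512% of all genes passed and 0.0361% passed as lower. At an unadjusted p under 0.05, 24 of the 45 genes were lower, as were 643 of all genes. Log2 differences below are given ± SE from limma. Fewer dividing cells and less RNA per cell cannot be told apart in bulk tumour.

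Cdc25c had 160.3, 113 and 175 scaled reads in the day 7 BXCL701 tumours and 181, 180.3 and 165 in the day 14 ones. The vehicle tumours had 302, 255 and 245 on day 7 and 249, 327 and 216 on day 14. Every BXCL701 tumour lay below every vehicle tumour on both days. Cdc25c fell by a log2 difference of -0.71 ± 0.17, with adjusted p = 0.0494 in limma. That call was marginal: it was lost when any 1 of 11 of the 12 tumours was left out, with adjusted p up to 0.214, and kept, at 0.0114, without vehicle day 14 replicate 3, where 9 of the 45 genes passed. How many of all genes passed in that last fit is not given here. Without the 4 libraries of extreme length index the difference was -0.63 and did not pass. Cdc25c shares 623 exonic bases with Gm3550 on the opposite strand, a row that reached only 4.45 scaled reads.

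The mitotic cyclins and kinases were lower as a group, with 8 of 8 genes below 0, each at an unadjusted p under 0.05, by a median of 0.48 (log2 differences of -0.36 to -0.71). Ccnb2 (cyclin B2), whose promoter is printed above, had 503 to 771 (median 737) scaled reads in BXCL701 tumours and 896 to 1087 (median 967) in vehicle tumours. Cdk1, the mitotic kinase, had 899 to 1652 (median 1468) in BXCL701 tumours and 1657 to 2600.4 (median 1881) in vehicle tumours. Neither gene's groups overlapped. Their log2 differences, -0.49 ± 0.13 for Ccnb2 and -0.49 ± 0.14 for Cdk1, did not pass in limma (adjusted p = 0.0698 and 0.0825). Ccnb1 (cyclin B1) had 826 to 1121 (median 1029.7) in BXCL701 tumours and 1018 to 1695 (median 1372) in vehicle tumours, a log2 difference of -0.47 ± 0.16 with adjusted p = 0.204 in limma. Plk1, the polo-like kinase of mitotic entry and spindle assembly, had 628 to 1285 (median 1059) in BXCL701 tumours and 1157 to 1645 (median 1309.7) in vehicle tumours, a log2 difference of -0.40 ± 0.16 with adjusted p = 0.296 in limma, and -0.25 without BXCL701 day 7 0 h replicate 2. Both overlapped between the groups.

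The 5 checkpoint and anaphase genes were also all below 0, by a median of 0.56, 4 of them at an unadjusted p under 0.05. Ttk had 173 to 237 (median 186) scaled reads in BXCL701 tumours and 269 to 349 (median 307) in vehicle tumours. Mad2l1, which with BUBR1 holds back CDC20, had 599 to 841 (median 719) in BXCL701 tumours and 893 to 1430 (median 1026) in vehicle tumours. In both genes every BXCL701 tumour lay below every vehicle tumour. Their log2 differences were -0.64 ± 0.19 for Ttk and -0.56 ± 0.16 for Mad2l1, with limma adjusted p = 0.105 and 0.105, so neither passed.

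Among the 12 genes of chromosome structure, kinetochore, spindle and cytokinesis the median was -0.48, with 12 below 0 and 7 at an unadjusted p under 0.05. Tpx2, which activates Aurora A on the spindle, had 1028 to 1523 (median 1377) scaled reads in BXCL701 tumours and 1526 to 2074 (median 1899) in vehicle tumours, with no overlap and a limma adjusted p = 0.111. Mki67 (Ki-67), the most used histological marker of dividing cells, had 2164 to 3137 (median 2662) in BXCL701 tumours and 2717 to 6265 (median 3606) in vehicle tumours. Top2a had 3665 to 4799 (median 4201) in BXCL701 tumours and 4121 to 7409 (median 5160.2) in vehicle tumours. Both overlapped: the log2 differences were -0.46 ± 0.23 and -0.35 ± 0.18, with limma adjusted p = 0.486 and 0.51. Hjurp, the chaperone that loads the centromeric histone CENP-A, was the exception of the group at -0.06 ± 0.14.

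The genes of S phase, with the transcription factors Foxm1 and Mybl2 listed beside them, stood nearer to 0 by role median. The 12 licensing and fork genes had a median log2 difference of -0.22, with 3 at an unadjusted p under 0.05, the 3 genes of nucleotide supply -0.34 with 2, and the 5 genes of S phase entry and transcription -0.16 with 0. These role medians were not tested against each other. Pif1 was the lowest of the fork genes, at 126 to 204 (median 174) scaled reads in BXCL701 tumours and 179 to 350.3 (median 291) in vehicle tumours, a log2 difference of -0.69 ± 0.17 that did not pass in limma (adjusted p = 0.0545). In the authors' log2 FPKM table the Pif1 difference was only -0.08, with a limma adjusted p of 0.95. Tipin, a fork protection factor that works with Timeless, had 303 to 531 (median 476) in BXCL701 tumours and 445 to 1119 (median 531) in vehicle tumours (-0.44 ± 0.15, limma adjusted p = 0.191). Both genes overlapped between the groups.

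Of the replication core, Mcm2, a helicase subunit, had 1227 to 2375 (median 1841) scaled reads in BXCL701 tumours and 1575 to 2302 (median 1854) in vehicle tumours, a log2 difference of -0.07 ± 0.13 with a limma adjusted p = 0.928. Pcna had 2122 to 2906 (median 2613) in BXCL701 tumours and 2691 to 4505 (median 3023) in vehicle tumours (-0.31 ± 0.16, limma adjusted p = 0.514). Rrm2, the regulated subunit of ribonucleotide reductase, had 1504 to 2293 (median 1907) in BXCL701 tumours and 1960.1 to 3354 (median 2956) in vehicle tumours (-0.54 ± 0.24, limma adjusted p = 0.402). The ranges of all 3 genes overlapped, and that of Mcm2 almost entirely.

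In the role of S phase entry and transcription, E2f1, a transcription factor of S phase genes, had 522 to 948 (median 844) scaled reads in BXCL701 tumours and 699 to 958 (median 848) in vehicle tumours (-0.09 ± 0.13, limma adjusted p = 0.91). Foxm1, a transcription factor of mitotic genes, had 857 to 1815 (median 1412) in BXCL701 tumours and 1028 to 1979.8 (median 1747) in vehicle tumours (-0.23 ± 0.15, limma adjusted p = 0.655), and the difference was -0.09 without BXCL701 day 7 0 h replicate 2 and -0.13 without vehicle day 14 replicate 3. Ccne1 (cyclin E1) was the only gene of the 45 above 0, at 152 to 342 (median 274) in BXCL701 tumours and 236 to 297 (median 243) in vehicle tumours (0.02 ± 0.15, limma adjusted p = 0.985). None of these 3 passed. The signs of Mcm2, E2f1 and Ccne1 turned when single tumours were left out.

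**Figure D2:**
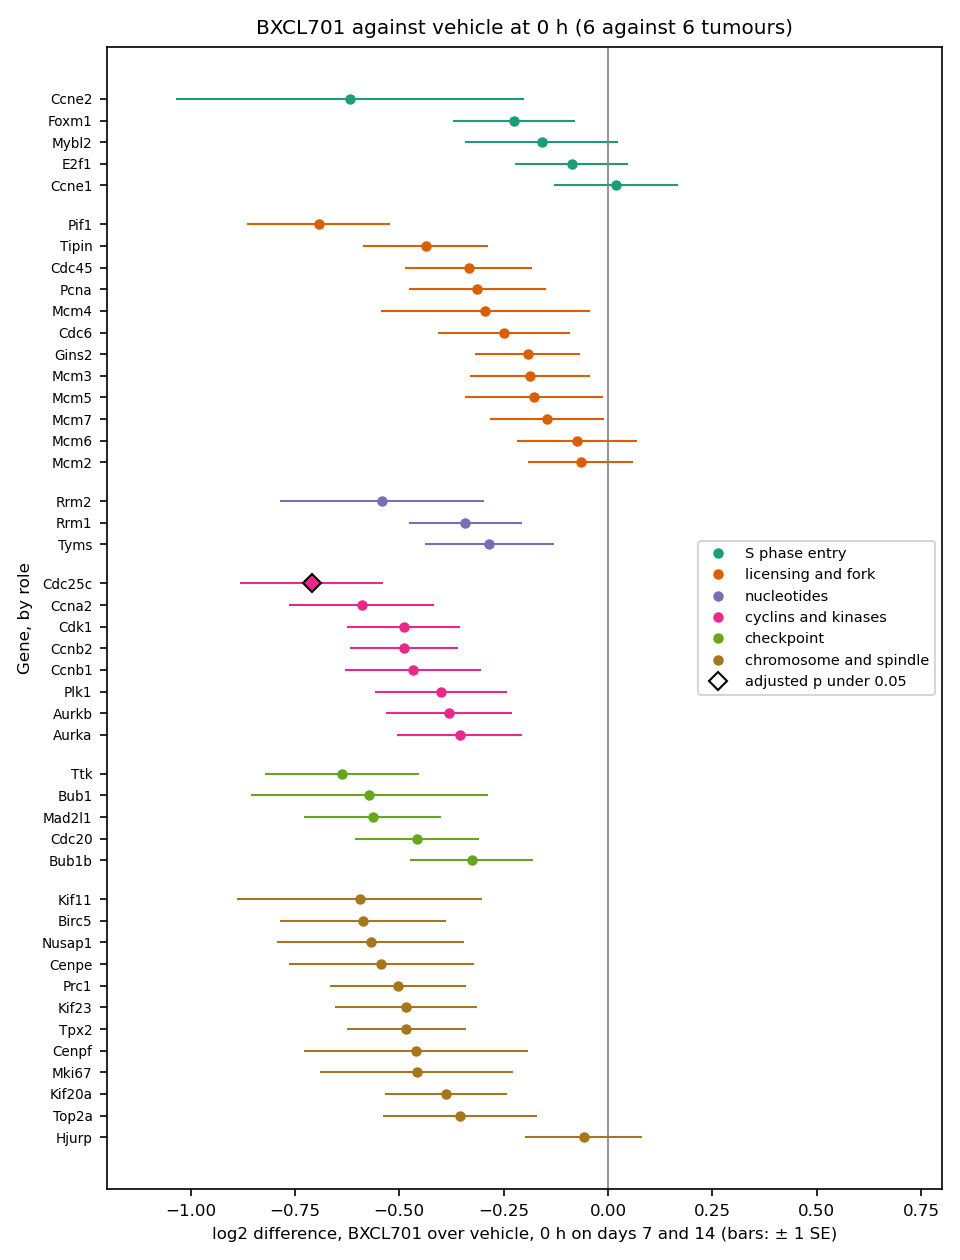
Log2 difference of each of the 45 genes, BXCL701 over vehicle at 0 h on days 7 and 14 (6 against 6 tumours), with bars of 1 SE, grouped and coloured by role. 44 points lie left of 0 and Ccne1 just right of it, and Cdc25c, at -0.71, carries the diamond of an adjusted p under 0.05.

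In 6 of the 45 genes every BXCL701 tumour lay below every vehicle tumour at 0 h, namely Ccnb2, Cdk1, Cdc25c, Mad2l1, Ttk and Tpx2, against 0.271% of all genes. The plot of the log2 differences by role shows the order within each role. Without the 4 libraries of extreme length index, 42 of 45 genes were below 0, 18 at an unadjusted p under 0.05 and 0 past the adjusted p of 0.05 in limma.

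Summed marker values of other cell types were also set side by side in these 12 tumours, without a test. The summed values of 13 neutrophil markers were 6364 to 10621 (median 7349.7) scaled reads in BXCL701 tumours and 2563 to 4898 (median 4095) in vehicle tumours, with no overlap. Over all libraries Mmp9, Csf3r, S100a9 and S100a8 had the highest medians of that list (1585, 1410, 940 and 594 scaled reads). Ly6g, Ngp and Camp had medians near 0 (3.36, 1.65 and 0.556), so the sum mostly reflects the former genes. The 10 macrophage markers summed to 47358 to 69572 (median 53255) in BXCL701 tumours and 32369 to 52949 (median 36633) in vehicle tumours. The 12 T cell markers summed to 1510.3 to 2374 (median 1929) in BXCL701 tumours and 464 to 1720 (median 1274) in vehicle tumours. Macrophage and T cell sums overlapped and had higher medians under BXCL701. Of these lists, only neutrophil markers (Ngp, Camp and Stfa2l1) were at 0 in any library. The 8 epithelial tumour markers summed to 16972 to 50428 (median 34922) in BXCL701 tumours and 22060.5 to 46852 (median 38879) in vehicle tumours. The 14 muscle markers summed to 289.8 to 28276 (median 11059) in BXCL701 tumours and 216 to 23843 (median 13949) in vehicle tumours, and the length index was -0.0756 to 0.326 (median -0.019) in BXCL701 tumours and -0.157 to 0.333 (median 0.0234) in vehicle tumours. The part of neutrophils, macrophages, T cells and epithelial tumour cells in the cell cycle differences was not tested. The length index and the muscle markers did enter alternative fits as covariates. Counts from those fits are given at the end, and they moved with the length index.

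Taken day by day at 0 h, the direction was shared and the calls were not reached. On day 7, 45 of 45 genes were below 0, by a median of 0.55, and 24 genes had 3 BXCL701 tumours below 3 vehicle tumours, against 3.1% of all genes. On day 14, 39 of 45 were below 0, by a median of 0.27, with 15 genes fully below, against 5.42% of all genes. Limma called 0 of the 45 genes on day 7, where 0.0% of all genes passed, and 0 on day 14, where 0.783% did. At an unadjusted p under 0.05, 23 of the 45 genes were lower on day 7, where 196 of all 16613 genes were, and 8 on day 14, where 676 were. Without the 4 libraries of extreme length index, which leaves 2 tumours a group on day 7, 44 of 45 genes were below 0 on that day, by a median of 0.35, and 4 were lower at the unadjusted level.

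Pif1 had the lowest p of day 7 at 0 h, with 169, 126 and 187 scaled reads in BXCL701 tumours and 345, 328 and 350.3 in vehicle tumours, and no overlap. Its log2 difference was -1.10 ± 0.24, with a limma adjusted p of 1. It was -0.96 without the 4 libraries and -0.43 in log2 FPKM. On day 14 Pif1 had 204, 179.5 and 140.1 in BXCL701 tumours and 204, 179 and 255 in vehicle tumours, which overlapped (-0.29 ± 0.24). Ccne1 was the only gene wholly higher in BXCL701 tumours on day 14, where 6.69% of all genes were, at 342, 276 and 289 against 241, 236 and 243 in vehicle tumours. The difference between the days was not called for any of the 45 genes at 0 h in limma (background 0.0%), 4 were higher at an unadjusted p under 0.05, and for Pif1 it was 0.82 ± 0.34. The count over all genes at that unadjusted level is not given here, so the 4 are not read as a result.

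Over all hours of day 14, Tipin fell in BXCL701 tumours, 1 of the 45 genes to pass, where 3.29% of all genes passed and 1.03% as lower. Tipin had 307 to 558 (median 470) scaled reads in the 12 BXCL701 tumours and 823, 1119 and 529 in the 3 vehicle tumours. Vehicle replicates 1 and 2 lay above every BXCL701 tumour and replicate 3 among them. The log2 difference was -0.83 ± 0.17, with a limma adjusted p of 0.00841. The call rested on vehicle day 14 replicate 2: without it the difference was -0.57 with adjusted p = 0.427 in limma, and with the libraries of this comparison alone it did not pass either. Without vehicle day 14 replicate 3, 4 genes passed (Tipin, Ccna2, Cdk1 and Birc5), and without BXCL701 day 14 8 h replicate 1, 3 did (Tipin, Ccnb2 and Cdk1). The shares of all genes passing in those fits are not given here. Vehicle tumours of the earlier days had 487, 414 and 619 on day 1 and 532, 446 and 455 on day 7, within or near the range of the day 14 BXCL701 tumours. Tipin lies at chr9:64281581-64305424 on the plus strand (GRCm38). Its binding partner Timeless had 483 to 677 (median 559.7) in the BXCL701 tumours and 639, 446 and 581 in the vehicle tumours, a log2 difference of 0.01 ± 0.15.

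The genes that followed Tipin by p on day 14 did not pass. Ccnb2 had 536 to 999.6 (median 712) scaled reads in BXCL701 tumours and 896, 1087 and 1000 in vehicle tumours (-0.45 ± 0.14, limma adjusted p = 0.0788). Cdk1 had 1228 to 1868 (median 1494) in BXCL701 tumours and 1966, 2600.4 and 1746 in vehicle tumours (-0.47 ± 0.15, limma adjusted p = 0.0806). Without vehicle replicate 2 the Cdk1 difference was -0.30 (limma adjusted p = 0.922), and in log2 FPKM it was -0.26. Each gene's highest BXCL701 tumours overlapped the vehicle tumours. Birc5 had 807 to 1581 (median 1119.7) in BXCL701 tumours and 1429.9, 2788 and 1331 in vehicle tumours, of which replicate 2 stood high (-0.63 ± 0.22, limma adjusted p = 0.111). Without that tumour the Birc5 difference was -0.29. Only Cdc20 had every BXCL701 tumour, at 971 to 1655 (median 1369), below every vehicle tumour, at 1658, 1945 and 1719, as did 0.476% of all genes.

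By count, 39 of 45 genes were below 0 over all hours of day 14, by a median of 0.25, against -0.01 for all genes. At an unadjusted p under 0.05, 10 of the 45 were lower and Hjurp was higher, where 1343 of all genes were lower and 1607 higher. Without vehicle day 14 replicate 2 the 10 became 2. The mitotic cyclins and kinases had a median of -0.37 with 8 of 8 below 0, and the S phase entry genes -0.09. Mki67 had 2282 to 5698 (median 2731) scaled reads in BXCL701 tumours and 3571, 2717 and 2756 in vehicle tumours, a log2 difference of 0.03 ± 0.26. Top2a stood at -0.01 ± 0.21 and Pcna at -0.39 ± 0.18, neither passing in limma, with Pcna at -0.20 without vehicle replicate 2. The sign of the values for Mki67 and Top2a turned with single tumours left out. Without the 4 libraries of extreme length index, which this comparison does not hold but whose removal changes the shared spread, 5 genes passed: Tipin, Ccnb2, Cdk1, Cdc20 and Birc5. The share of all genes passing in that fit is not given here.

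Beside these values on day 14, the neutrophil markers summed to 3070.1 to 10621 (median 6213) scaled reads in BXCL701 tumours and 2563 to 4201 (median 3897) in vehicle tumours. Epithelial tumour markers summed to 21049 to 50428 (median 33395) in BXCL701 tumours and 38759 to 44606 (median 38999.7) in vehicle tumours. Muscle markers reached 327410 in 1 BXCL701 tumour, against at most 21664 in vehicle tumours. The part of the neutrophil and epithelial tumour markers in the result was not tested, and muscle markers entered only the tissue covariates of an alternative fit.

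Over all hours of day 7, 43 of 45 genes were below 0, by a median of 0.41, against -0.03 for all genes. In limma 0 of the 45 passed the adjusted p of 0.05, where 0.00602% of all genes did, and 23 were lower at an unadjusted p under 0.05, as were 685 of all genes. The chromosome and spindle genes stood lowest, with a median of -0.60 and 11 of 12 at an unadjusted p under 0.05. Licensing and fork genes had a median of -0.14 with 1 of 12. In 9 genes (Foxm1, Pif1, Ttk, Mki67, Cenpf, Hjurp, Prc1, Kif11 and Kif23) all 12 BXCL701 tumours lay below all 3 vehicle tumours, against 0.289% of all genes.

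Pif1 had 126 to 256 (median 189.7) scaled reads in the day 7 BXCL701 tumours, below the vehicle values given above for that day (-0.87 ± 0.19, limma adjusted p = 0.287). Kif23, a motor of the cytokinetic midzone, had 242 to 719 (median 507) in BXCL701 tumours and 793, 827 and 723 in vehicle tumours (-0.65 ± 0.19, limma adjusted p = 0.462). Prc1, the microtubule bundler of that midzone, had 924 to 2311 (median 1745) in BXCL701 tumours and 2744, 2659 and 2355 in vehicle tumours (-0.60 ± 0.18, limma adjusted p = 0.462). All 3 genes were separated by group and none passed. Mki67 had 1131 to 3574 (median 2835) in BXCL701 tumours and 3642, 6265 and 3734 in vehicle tumours (-0.82 ± 0.26). Hjurp had 2005 to 3955 (median 3379) in BXCL701 tumours and 4412, 5390.2 and 4005 in vehicle tumours (-0.51 ± 0.16). In both, the gap to the lowest vehicle tumour was small, vehicle replicate 2 stood highest, and the limma adjusted p was 0.462.

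Ccnb1, Top2a and Foxm1 gave a like picture on day 7. Ccnb1 had 632 to 1532 (median 1060.5) scaled reads in BXCL701 tumours and 1696, 1668 and 1308 in vehicle tumours (-0.58 ± 0.18). Top2a had 2106 to 5634 (median 3969.6) in BXCL701 tumours and 6156, 7409 and 5278 in vehicle tumours (-0.59 ± 0.21). Foxm1 had 857 to 1567 (median 1476) in BXCL701 tumours and 1979.8, 1768 and 1831 in vehicle tumours (-0.40 ± 0.16). None passed in limma (adjusted p = 0.462 for Ccnb1 and Top2a and 0.487 for Foxm1). Foxm1 was separated by group, while Ccnb1 and Top2a overlapped at 1 vehicle tumour each.

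The day 7 groups hold 3 of the 4 libraries of extreme length index, and the index was -0.411 to 0.326 (median -0.0224) in BXCL701 tumours and 0.0323 to 0.333 (median 0.0821) in vehicle tumours. Without the 4 libraries, 11 of the 45 genes were lower at an unadjusted p under 0.05 in place of 23, and without vehicle day 7 replicate 2 alone 14 were. Mki67 stood at -0.48, Top2a at -0.36 and Pif1 at -0.79 without the 4 libraries. With the length index as covariate Kif23 stood at -0.41, Mki67 at -0.43 and Top2a at -0.35. Day 7 neutrophil markers summed to 4434 to 9155 (median 6437) scaled reads in BXCL701 tumours and 3989.8 to 4898 (median 4332) in vehicle tumours, and macrophage markers to 46114 to 127856 (median 57161) in BXCL701 tumours and 35576 to 46921 (median 37690.3) in vehicle tumours. The part of the neutrophil and macrophage markers in the result was not tested.

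On day 1, within 16 h of the first dose, none of the 45 genes passed in limma. The median log2 difference was -0.10, against 0.03 for all genes, and 38 of 45 were below 0. The count was 0 of the 45 past the adjusted p of 0.05 (background 0.0%), 0 at an unadjusted p under 0.05, and 0 of the 45 had groups that did not overlap (0.0843% of all genes). The lowest p belonged to Ccne1, Tyms (thymidylate synthase) and Birc5. Ccne1 had 209 to 417 (median 277) scaled reads in BXCL701 tumours and 298, 507 and 300 in vehicle tumours (-0.35 ± 0.17). Tyms had 789 to 1421 (median 937) in BXCL701 tumours and 928, 1979 and 1131 in vehicle tumours (-0.34 ± 0.18). Birc5 had 1003 to 1653 (median 1269) in BXCL701 tumours and 1250.2, 2883 and 1427 in vehicle tumours (-0.43 ± 0.23). All 3 had a limma adjusted p of 0.906, and in each vehicle replicate 2 stood far above the other vehicle tumours. Without that tumour the differences were -0.09 for Ccne1, -0.02 for Tyms and -0.06 for Birc5. Without vehicle replicate 1 they were -0.57 for Tyms and -0.66 for Birc5.

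The treatment difference of day 14 minus that of day 7, over all hours, was called for 0 of the 45 genes in limma (background 0.0%), with 4 higher and 1 lower at an unadjusted p under 0.05. No count over all genes is given at that level, so these are not read as a change of the 45. Hjurp had the lowest p, at 0.93 ± 0.22 with adjusted p = 0.178 in limma, and at 0.77 without the 4 libraries of extreme length index. In the 12 BXCL701 tumours of day 14 Hjurp had 2419 to 4506 (median 3664) scaled reads, against 2802, 2304 and 2981 in vehicle tumours, so the BXCL701 median lay above all 3 vehicle tumours, while on day 7 all 12 lay below. Tipin stood at -0.71 ± 0.24 (limma adjusted p = 0.208) and Pif1 at 0.71 ± 0.27 (limma adjusted p = 0.233). Differences between days in these genes also involve the vehicle tumours, whose levels follow.

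Across vehicle tumours, 0 of the 45 genes were called between days in limma. Of all genes 0.0% were called for day 7 against day 1, 0.0602% for day 14 against day 1 and 0.0% for day 14 against day 7. At an unadjusted p under 0.05, 2 of the 45 were higher and 1 lower for day 7 against day 1, 1 and 5 for day 14 against day 1, and 1 and 4 for day 14 against day 7. Counts over all genes at that level are not given here, so these few genes are not read as a change of the 45. Hjurp in vehicle tumours was 3231, 3414 and 2981 scaled reads on day 1, against which day 7 stood at 0.51 ± 0.20, and day 14 stood at -0.77 ± 0.20 against day 7 (limma adjusted p = 0.263 and 0.119). These were 0.44 and -0.65 without the 4 libraries. Tipin stood at 0.72 ± 0.21 on day 14 against day 7 (limma adjusted p = 0.135). Pif1 stood at -0.69 ± 0.24 in the same comparison (limma adjusted p = 0.17). The treatment differences of each day are measured against these same vehicle tumours.

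Among BXCL701 tumours of matched hours (1, 8 and 16 h), 3 of the 45 genes fell on day 14 relative to day 1: Plk1, Cdc20 and Ccnb2. In that comparison 1.27% of all genes passed, 0.698% as lower. Plk1 (chr7:122159439-122169873, plus strand, GRCm38) had 1134, 1043 and 828 scaled reads at 1 h, 1322, 905 and 717 at 8 h and 1068, 1286 and 876 at 16 h on day 14. On day 1 it had 1378, 1622 and 1899 at 1 h, 1369.6, 1563 and 1486 at 8 h and 1227, 1630.5 and 1490.2 at 16 h. Only the highest day 14 tumours reached into the day 1 range. The log2 difference was -0.59 ± 0.13, with a limma adjusted p of 0.0189.

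Cdc20 (chr4:118432901-118437352, minus strand, GRCm38), the activator of the anaphase-promoting complex, had 1403, 1237 and 1045 scaled reads at 1 h, 1564, 1177 and 971 at 8 h and 1494, 1655 and 1334 at 16 h on day 14. On day 1 it had 1754, 1871 and 2356 at 1 h, 1726, 1935 and 1887 at 8 h and 1708, 1827 and 1844 at 16 h. All 9 day 14 tumours lay below all 9 day 1 tumours, as in 0.144% of all genes, and the log2 difference was -0.52 ± 0.12, with a limma adjusted p of 0.0252. Ccnb2 (chr9:70407692-70421547, minus strand, GRCm38) had 536 to 999.6 (median 713) in day 14 tumours and 761 to 1223 (median 911) in day 1 tumours, which overlapped (-0.43 ± 0.11, limma adjusted p = 0.0357). The vehicle tumours of day 14 had 1157, 1234 and 1386 for Plk1 and those of day 1 1442, 2287 and 1639, and the vehicle difference between these days was -0.48 ± 0.22 for Plk1, -0.37 ± 0.21 for Cdc20 and -0.09 ± 0.18 for Ccnb2, none called.

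These 3 calls moved with single tumours. With each of the 18 tumours left out in turn, Plk1 was lost in 2 cases (adjusted p up to 0.051 in limma), Cdc20 in 4 (up to 0.0648) and Ccnb2 in 12 (up to 0.0928). All 3 were lost without BXCL701 day 1 16 h replicate 3 or without BXCL701 day 14 8 h replicate 3, only Plk1 remained without BXCL701 day 1 1 h replicate 3, and 5 genes passed without BXCL701 day 14 8 h replicate 1. The shares of all genes passing in these fits are not given here. Plk1 overlaps the row Gm44985 by 156 bases on the opposite strand, Cdc20 overlaps Elovl1 by 53, and Ccnb2 has a pseudogene row, and how the authors split such reads is not given in the sources used here.

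**Figure D3:**
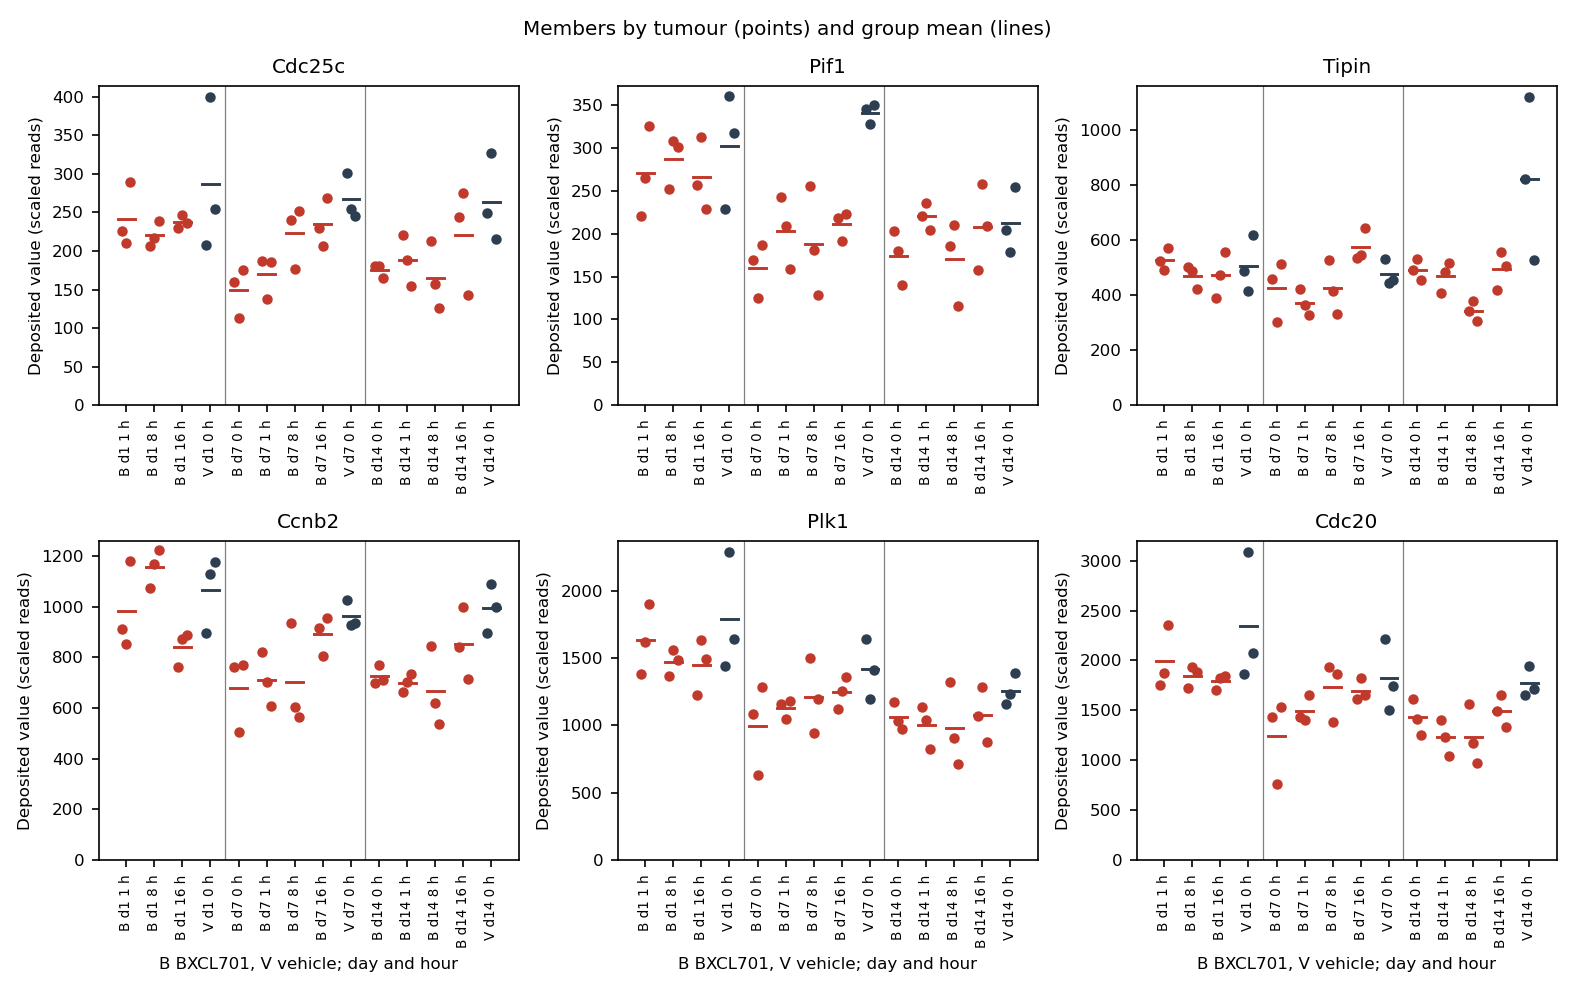
Deposited scaled reads of Cdc25c, Pif1, Tipin, Ccnb2, Plk1 and Cdc20 in every tumour (points) with group means (lines), BXCL701 in red and vehicle in dark points, by day and hour. Cdc25c and Ccnb2 at 0 h lie below vehicle on days 7 and 14, the 9 day 14 tumours of Cdc20 at 1, 8 and 16 h lie below the 9 of day 1, and 2 vehicle tumours of day 14 stand high for Tipin.

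The other genes of the 45 were then described by role, without a test between roles. All 8 mitotic cyclins and kinases were below 0, with a median of -0.30 and 7 at an unadjusted p under 0.05, while the 12 chromosome and spindle genes had a median of -0.04, with 6 below 0. Bub1b (BUBR1), a checkpoint kinase-like protein, just missed the threshold at -0.46 ± 0.12 (limma adjusted p = 0.0504). Aurka (Aurora A), a spindle pole kinase, stood at -0.40 ± 0.12 (limma adjusted p = 0.0849), Mki67 at 0.26 ± 0.19 and Top2a at 0.00 ± 0.15. In all, 36 of 45 genes were below 0 (median -0.18). The plot of 6 genes by tumour shows Plk1, Cdc20 and Ccnb2 on all days. Epithelial tumour markers summed to 21049 to 48949 (median 31042) scaled reads on day 14 and 28865 to 42022 (median 34323) on day 1 in these tumours, and neutrophil markers to 3070.1 to 8225 (median 5582) on day 14 and 2596 to 8363 (median 5399) on day 1, with overlap in both. For day 7 against day 1 limma called 0 of the 45 (0.12% of all genes, 0.0181% as lower) and for day 14 against day 7 also 0 (0.012% of all genes), with 12 and 0 lower at an unadjusted p under 0.05. The unadjusted counts and the counts below 0 of these comparisons between days are given without those over all genes and are descriptive only. On day 7 against day 1, 40 of 45 were below 0, with Ccnb2 at -0.38 ± 0.11 (limma adjusted p = 0.094).

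The hour of harvest was compared among BXCL701 tumours in 6 pairs of hours, and limma called 0 of the 45 genes in each, where between 0.00602% and 0.337% of all genes passed. For 16 h against 1 h, 0.0181% of all genes passed as lower. At an unadjusted p under 0.05 the 6 pairs gave between 0 and 3 of the 45 genes. Counts over all genes at that level are not given here, and so few genes are not read as a result. At 16 h against 0 h, on days 7 and 14, 40 of 45 genes were above 0 by a median of 0.23, against 0.01 for all genes, with 3 at that unadjusted level. Cdc25c had 230.4, 206 and 269 scaled reads on day 7 and 244, 276 and 142 on day 14 at 16 h, against the 0 h BXCL701 values given above. On day 7 all 3 tumours of 16 h lay above those of 0 h, and on day 14 replicate 3 lay below them. Its log2 difference was 0.47 ± 0.17, with a limma adjusted p of 1.

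Ccne1 was the gene nearest to a call by hour. At 8 h against 1 h it had 209, 277 and 209.9 scaled reads against 278, 364 and 417 on day 1. On day 14 it had 244, 193 and 185 at 8 h against 402, 309 and 285 at 1 h, and neither day's hours overlapped. On day 7 it had 263, 222 and 261 at 8 h against 275, 278 and 262 at 1 h, with overlap. Over the 3 days the log2 difference was -0.47 ± 0.12, with a limma adjusted p of 0.0922. E2f2, an activator of S phase genes outside the 45, rose at 16 h against 8 h (0.55 ± 0.10, limma adjusted p = 0.0076, where 0.229% of all genes passed).

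**Figure D4:**
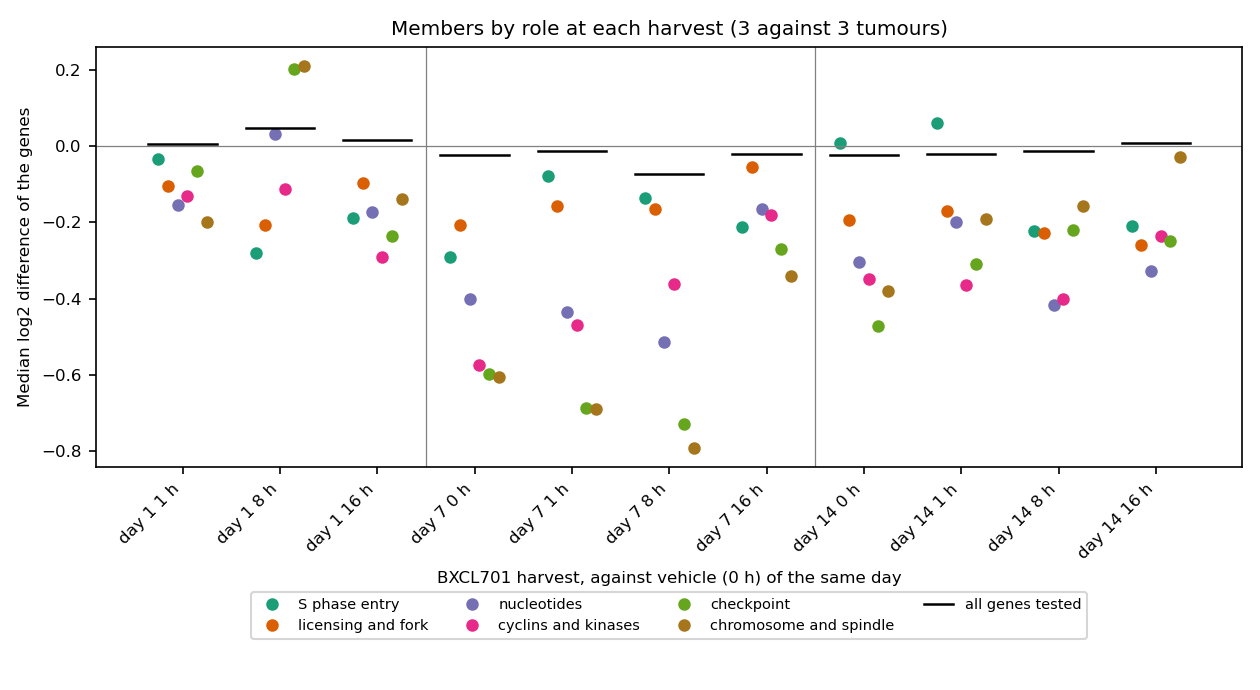
Median log2 difference of the genes of each role at each of the 11 BXCL701 harvests against vehicle of the same day, with a black bar for the median of all genes tested. On day 7 the chromosome and spindle genes stand at -0.69 at 1 h and -0.79 at 8 h, on day 1 at 8 h they stand at 0.21, and the mitotic cyclins and kinases stand below 0 at all 11 harvests.

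Taken singly, the 11 BXCL701 harvests each set 3 tumours against the 3 vehicle tumours of the day, so harvests of 1 day share their vehicle tumours. Of the 45 genes only Tipin was called, on day 14 at 8 h, where 1.25% of all genes passed. At 1 h and 16 h of day 14, 0.789% and 0.0722% of all genes passed, and on day 7 at 8 h 0.301%. At 8 h of day 14 Tipin had 341, 377 and 307 scaled reads, all below the 3 vehicle tumours, a log2 difference of -1.21 ± 0.21 with a limma adjusted p of 0.00536, which was lost with the libraries of the comparison alone. On day 7 at 8 h, Kif23 had 641, 460.5 and 242 (-0.91 ± 0.24, limma adjusted p = 0.0658) and Mki67 3296, 2353 and 1131 (-1.09 ± 0.33, limma adjusted p = 0.0761). Replicate 3 of that harvest, a library of extreme length index, was lowest in both. Kif23 stood at -0.48 and Mki67 at -0.40 there without the 4 libraries, and the median of the chromosome and spindle genes at -0.33. The chromosome and spindle genes had medians of -0.20, 0.21 and -0.14 at 1, 8 and 16 h of day 1, -0.69, -0.79 and -0.34 at the same hours of day 7, and -0.19, -0.16 and -0.03 on day 14. For the licensing and fork genes they were -0.10, -0.21 and -0.10 on day 1, -0.16, -0.16 and -0.06 on day 7, and -0.17, -0.23 and -0.26 on day 14. The plot of role medians by harvest shows these values.

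A further 112 genes of the same pathway were listed apart from the 45. This list too was chosen with earlier results of these data known, so it is no independent check of the 45. At 0 h, 50 of 50 other mitosis genes were below 0, by a median of 0.47 with 28 at an unadjusted p under 0.05. The 36 other replication genes had a median of -0.21 with 6, and the 26 G1 cyclins, kinases and inhibitors -0.16 with 1. Limma called 0 of the 112. Cenpa, the centromeric histone, had 834 to 1105 (median 933) scaled reads in BXCL701 tumours and 1168 to 1868 (median 1268) in vehicle tumours, with no overlap (-0.51 ± 0.12, limma adjusted p = 0.0516). Genes of G1 did not pass in limma: Ccnd1 (cyclin D1) at -0.10 ± 0.13, its kinase Cdk4 at -0.18 ± 0.15, the inhibitors Cdkn1a (p21) at -0.16 ± 0.24 and Cdkn1b (p27) at -0.48 ± 0.32, and Rb1, the E2F repressor, at -0.20 ± 0.26. Of replication and checkpoint genes, the licensing factor Cdt1 stood at -0.03 ± 0.15, the kinase Chek1 at -0.52 ± 0.28 and the securin Pttg1 at -0.08 ± 0.15, none past the threshold.

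On day 14 over all hours 2 of the 112, Cenpa and Cks1b, passed as lower, where 1.03% of all genes did. So small a count near that share is not read as a result about the 112. Cenpa had 656 to 1150 (median 930.3) scaled reads in BXCL701 tumours and 1249.5, 1868 and 1168 in vehicle tumours, with no overlap (-0.57 ± 0.14, limma adjusted p = 0.0196). Cks1b, a small subunit that binds cyclin-dependent kinases, had 1327 to 1827 (median 1617) in BXCL701 tumours and 2780.3, 3439.9 and 1623 in vehicle tumours (-0.65 ± 0.16, limma adjusted p = 0.0202). Vehicle replicate 3 lay within the BXCL701 range. In both Cenpa and Cks1b vehicle replicate 2 stood highest, and no value without that tumour is given here. On day 14 against day 1 under BXCL701, where 0.698% of all genes passed as lower, 2 of the 112 did, again a small count. Ncapd2, a condensin subunit, had 1505 to 2307 (median 1923) on day 14 and 2151 to 2978 (median 2657) on day 1 (-0.46 ± 0.10, limma adjusted p = 0.0188). Kif2c, a kinesin that takes apart microtubules at kinetochores, had 371 to 619 (median 473) on day 14 and 535 to 819.5 (median 631) on day 1 (-0.42 ± 0.10, limma adjusted p = 0.0347). Both fell, and both overlapped between the days.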

How the data were processed

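Gene values of 42 libraries in 14 groups of 3 mice, each labelled as a separate animal, were used as the authors deposited them. Reads were processed with Trimmomatic 0.36 and Bowtie 0.12.9 on GRCm38, per the submitters' processing notes; the sources used here do not name the quantifier, annotation, strand setting or scaling. The deposited table of gene values is a signal: fractional, scaled reads, not whole counts, so no count model was used. The authors' second table, of log2 FPKM, served for levels per length and as an alternative; a copy of it was not used. Genes with at least 10 scaled reads in at least 3 libraries (16613) were tested as log2(value + 1) with limma 3.58.1 (R 4.3.3; intensity trend, robust), 1 coefficient per group and 28 residual degrees of freedom, Benjamini-Hochberg over all genes, threshold 0.05. The pseudocount understates changes of low genes. Files were prepared with Python 3.11.15, pandas 2.3.3 and numpy 2.4.6, and figures with matplotlib 3.10.9. The script was tested on simulated data. Gene positions are from GENCODE M21 (47224 of 47729 identifiers matched). Depth sets precision only through the spread between tumours, since the scale had been adjusted. Genes with full values were those past the threshold, the 3 of lowest p in each treatment comparison, and 14 fixed examples of the roles. Replicate numbers follow accession order. The members and gene lists were chosen with earlier results of these data known.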

Additional observations from a re-analysis of the deposited data

How the results depend on the processing

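Counts of genes past an adjusted p of 0.05 in limma moved most. At 0 h on days 7 and 14 combined the 1 gene became 2 with median-of-ratios factors, 0 with no filter, 0 with a pseudocount of 5, 0 with the comparison's libraries alone, 2 with neighbouring tissue covariates, 13 with the length index as covariate, and 0 without the 4 libraries of extreme length index, a setting chosen after seeing the data, as was leaving out tumours of the day 14 against day 1 comparison. On day 14 at 0 h the length covariate gave 1 in place of 0. On day 14 over all hours the 1 gene became 0 with the comparison's libraries alone, 10 with the length covariate and 5 without the 4 libraries; at an unadjusted p under 0.05, the 10 lower genes became 19 with the length covariate. On day 7 over all hours the 23 lower genes became 11 without the 4 libraries. For BXCL701 day 14 against day 1 the 3 genes became 8 without them, and for 8 h against 1 h the 0 became 1 without them and 1 with median-of-ratios factors. Over the 11 harvests the 1 call became 0 with the comparison's libraries alone and 2 without the 4 libraries. The cause of these shifts was not tested.

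With single tumours left out, calls ranged from 0 to 9 at 0 h combined, 0 to 1 on day 14 at 0 h, 0 to 4 on day 14 over all hours, 0 to 2 for vehicle day 14 against day 1 and against day 7, and 0 to 5 for BXCL701 day 14 against day 1, and stayed at 0 to 0 in the other comparisons so treated. The 9 calls at 0 h came without vehicle day 14 replicate 3. These counts too are given without the shares of all genes passing in each fit. Genes below 0 ranged from 39 to 45 at 0 h combined, 36 to 42 on day 14 and 39 to 44 on day 7, and those lower at an unadjusted p under 0.05 from 17 to 29, 2 to 13 and 14 to 26. No paired analysis was possible because replicate numbers were given in accession order and each animal gave 1 tumour.

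Values near 0 changed sign. At 0 h Mcm2 became 0.027 without the 4 libraries, and with 1 tumour left out Mcm2 ranged from -0.17 to 0.060, Ccne1 from -0.055 to 0.15 and E2f1 from -0.15 to 0.028. On day 14 over all hours Mki67 became -0.066 with tissue covariates and -0.19 with the length covariate, Top2a became 0.033 and Mcm2 0.031 with median-of-ratios factors, and Mcm2 became 0.063 and Pif1 0.32 in log2 FPKM. With 1 tumour left out there, Mki67 ranged from -0.054 to 0.16, Top2a from -0.10 to 0.044, Foxm1 from -0.070 to 0.30 and Mcm2 from -0.067 to 0.060. On day 7 with the length covariate, Pcna became 0.024 and E2f1 -0.089. The precision of each value is set by the spread between 3 tumours a group.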
